A study of Rattus norvegicus with 61 samples.

Results

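The comparison described here sets striatal punches of rats with a high implant loading against those of rats with a low loading, 12 of the 61 libraries of the series. The animals were male Sprague-Dawley rats, implanted under the skin with a polymer device on postnatal day 28 and sampled after 28 days of exposure. The high group (7 libraries) had implants loaded with 10% 4-OH-PCB52, which is a hydroxylated product of the polychlorinated biphenyl PCB52, and the low group (5 libraries) had implants loaded with 1% of it. Medium (5%, 8 libraries) and sham implants (0%, 7 libraries) entered the same fit and are given as context, so every rat carried an implant. The loading is a property of the implant, and no tissue level of the compound was used here. The animals came in 4 cohorts 3 weeks apart, and each library is one numbered rat.

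The libraries were chosen by a measured value, the share of reads on Ppp1r1b (NCBI Gene ID 360616). It encodes DARPP-32, through which dopamine controls a protein phosphatase in striatal projection neurons. Libraries with under 500 CPM of it, counted on the raw total, were left out. That removed 1 of 8 high libraries (animal 13, at 269) and 1 of 6 low libraries (animal 20, at 218). The kept library nearest to the limit was high 44, at 1389, and the other kept high and low libraries lay between 2945 and 6315. Ppp1r1b and its fellow projection neuron transcripts are therefore described and not tested. Total reads of the 12 libraries ran from 5851797 to 9106267, with a median of 7254766, so depth did not separate the groups.

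Several kept libraries stood apart in ways the loading does not define. The library mean over cytosolic ribosomal protein transcripts was 9.73 log2 CPM in high 28 and 8.90 in high 59, against 7.79 to 8.16 in the other high libraries and 7.87 to 8.30 in the low libraries. High 44 had a mean of 6.20 log2 CPM over cortical excitatory neuron transcripts, against 2.71 to 3.49 in the other high and 2.99 to 4.06 in the low libraries, and its projection neuron mean was the lowest of the 12, at 7.34. For the lists that rest most on these 3 libraries, medians are given with and without some of them. Estimates printed for single genes include them. From here on CPM are read counts put on 1 scale by trimmed-mean (TMM) factors, and a library mean over a list is the mean of log2 CPM over its transcripts.

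Myelin is the lipid-rich membrane that oligodendrocytes wrap around axons. In the striatum it lies in the fibre bundles that cross the projection neurons, and in rats it is still being laid down in adolescence. SOX10, OLIG2 and MYRF are transcription factors that hold the oligodendrocyte programme, under which sheath proteins such as MBP and MAG and the enzymes of galactolipid synthesis are made. In bulk punches, fewer cells of a type and less RNA per cell cannot be told apart.

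Promoters of 2 myelin genes whose high libraries all lay below the low libraries are shown because each holds letters recognised by SOX proteins and by MYRF. They are the 250 bases before the start of Mag, myelin-associated glycoprotein (GRCr8 chr1:95291045-95291294, minus strand), and of Cnp, a myelin phosphodiesterase (GRCr8 chr10:86011254-86011503, plus strand). Both are from RefSeq and are written in the direction of the gene. Capitals mark ACAAAG or ACAATG (SOX) and CTGGCAC or CTGGTAC (MYRF), searched on both strands, and the marked stretches do not overlap.
Mag: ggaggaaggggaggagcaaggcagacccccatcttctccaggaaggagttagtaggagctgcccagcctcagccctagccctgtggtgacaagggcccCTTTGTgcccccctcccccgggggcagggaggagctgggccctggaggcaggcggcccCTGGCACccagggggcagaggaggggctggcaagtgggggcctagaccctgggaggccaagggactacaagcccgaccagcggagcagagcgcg
Cnp: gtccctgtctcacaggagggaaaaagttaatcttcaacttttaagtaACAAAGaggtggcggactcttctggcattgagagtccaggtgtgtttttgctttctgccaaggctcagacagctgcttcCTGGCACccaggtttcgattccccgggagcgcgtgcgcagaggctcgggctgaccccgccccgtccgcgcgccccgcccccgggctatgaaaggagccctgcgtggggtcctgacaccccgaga
Of the 25 transcripts of the oligodendrocyte and myelin list, 19 had a promoter in the table. The SOX letters were in 8 of these 19 (42.1%) and in 16.8% of the 9951 promoters of tested genes. The MYRF letters were in 6 (31.6%), against 5.36% of the tested genes, and the E-box CAGCTG was in 5 (26.3%), against 12.7%. The list members Hapln2 and Opalin, whose high and low libraries overlapped, also held both SOX and MYRF letters. Fa2h, whose libraries did not overlap, held neither. All of these are matches of letters only.

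No gene passed the test. Of 12243 genes tested with the quasi-likelihood test of edgeR, 0 (0%) had a Benjamini-Hochberg adjusted p under 0.05, and the smallest adjusted p was 0.932. DESeq2 and limma-voom also called 0. At an unadjusted p under 0.05, 219 genes were lower in high (1.79% of those tested) and 126 were higher (1.03%). The unadjusted count over both directions was 345 in edgeR, 426 in DESeq2 and 1028 in limma-voom. All 7 high libraries lay below all 5 low libraries for 59 genes (0.482%) and above them for 16 (0.131%). The median log2 difference over all genes was 0.02, with 47.1% of genes lower in high. Every value below is thus a description of 12 libraries, and none is a called gene.

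Transcripts of oligodendrocytes and myelin stood lower in high than in low punches. All 25 transcripts of the list were tested and all 25 had a lower estimate in high, with a median log2 difference of -0.42 and a range of -0.59 to -0.19. Of these, 15 had an unadjusted p under 0.05 and 8 had no overlap between the groups. All 37 lists were chosen with earlier results of these data known, so the direction of this one is not independent evidence.

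The library mean over the 25 transcripts was 7.17 log2 CPM in the lowest high library, 7.62 in the median one and 7.83 in the highest. In the low libraries it was 8.08, 8.03, 8.04, 8.08 and 7.94. The high libraries thus lay below every low library, and the spread among high libraries was wider (SD 0.23, n = 7) than among low libraries (SD 0.06, n = 5). Sham libraries ran from 7.07 to 8.18 and covered both the high and the low values. Medium libraries ran from 7.26 to 8.21, from within the high range to above the low one. For all 25 transcripts the sham mean and the medium mean also lay below the low mean. The sham mean lay above the high mean for 23 of the 25 and the medium mean for 20. Averaged over the list, the groups had 7.57 (high), 7.63 (medium), 7.63 (sham) and 8.04 log2 CPM (low). The high mean thus lay close to those of medium and sham, and the low mean stood above all of them.

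**Figure D1:**
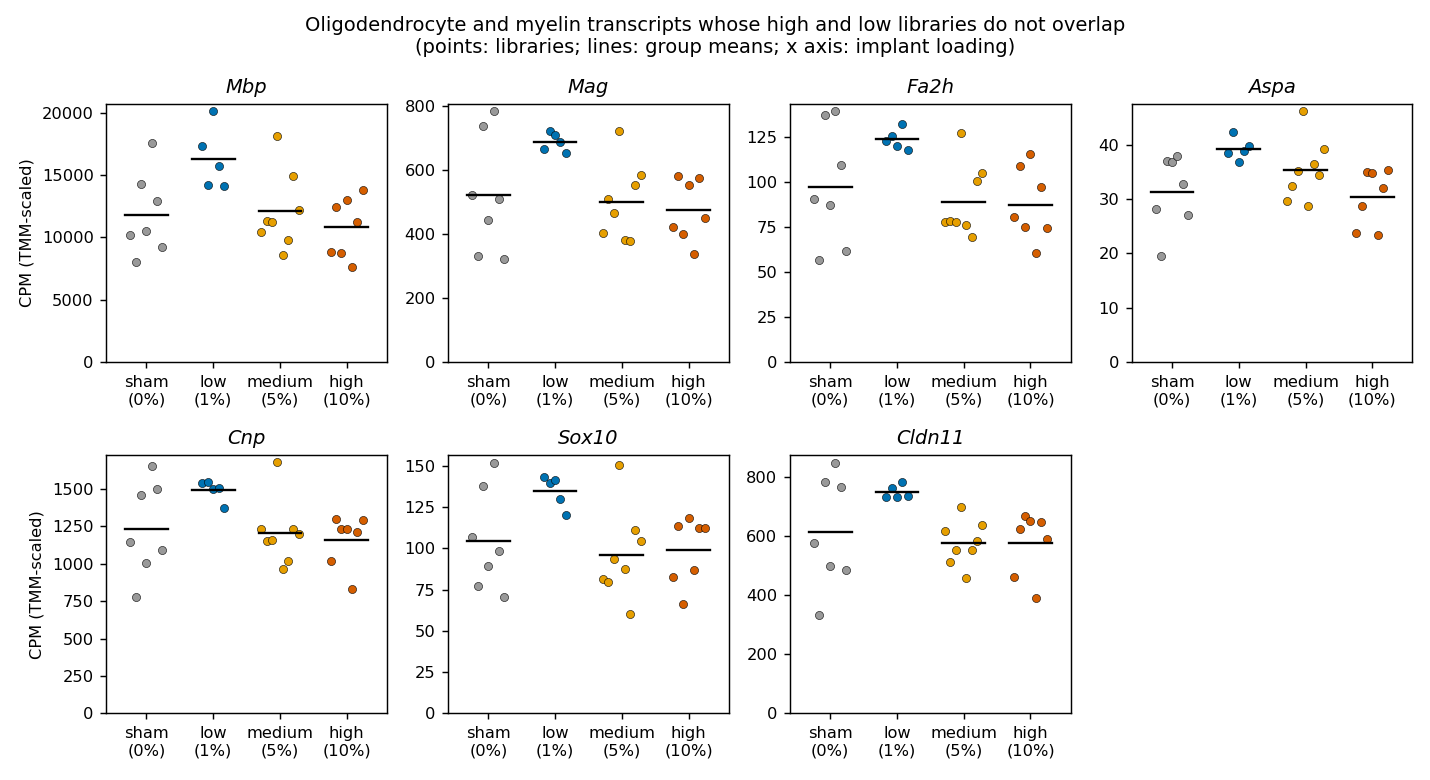
CPM of 7 of the 8 list transcripts without overlap between high and low, by implant loading (x axis), with 1 point per library and a line at each group mean. All 7 high libraries lie below the 5 low libraries in each panel, while sham and medium libraries spread over both ranges.

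Among sheath proteins, Mbp (NCBI Gene ID 24547), which encodes the basic protein that compacts the membrane, had 7629 CPM in the lowest high library, 11221 in the median one and 13767 in the highest. The low libraries had 17302, 14172, 20098, 15706 and 14141 CPM. No high library reached the lowest low one, and the estimate was -0.59 ± 0.19 (log2, standard error; edgeR unadjusted p = 0.00498, adjusted p = 0.932). Mag, whose promoter is shown above, had 339, 449 and 581 CPM in the lowest, median and highest high library. Its low libraries had 666, 721, 707, 687 and 651 CPM, and they differed little among themselves. Cldn11, the claudin of the sheath's tight junctions, averaged 576 ± 107 CPM in high and 748 ± 22.7 CPM in low libraries (SD, n = 7 and 5), also without overlap.

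The other 6 sheath transcripts overlapped between the groups. Mobp, a basic protein of the compact sheath, averaged 1278 ± 325 CPM in high and 1929 ± 231 CPM in low libraries, and only its highest high library (1718 CPM) passed its lowest low library (1683 CPM). Hapln2, a link protein of the matrix at nodes of Ranvier, averaged 147 ± 28.8 CPM in high and 210 ± 33.8 CPM in low libraries. Mog, a glycoprotein of the outer sheath, had the smallest difference of the 10 sheath transcripts, -0.28 ± 0.17 log2, and in high 28 it reached 339 CPM, above all low libraries (282 to 314 CPM). Over the 10 sheath transcripts the median was -0.45, with 7 at an unadjusted p under 0.05 and 4 without overlap.

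Enzymes of myelin lipids and metabolites gave similar sizes, with a median of -0.42 over 6 transcripts. Fa2h, the hydroxylase of myelin fatty acids, had 60.9, 80.5 and 116 CPM in the lowest, median and highest high library, and its 5 low libraries lay between 118 and 132 CPM. Cnp averaged 1158 ± 171 CPM in high and 1494 ± 69.8 CPM in low libraries, and Aspa, which releases acetate from N-acetylaspartate, averaged 30.4 ± 5.2 CPM in high and 39.2 ± 2.0 CPM in low libraries. Both were without overlap. Ugt8, the galactosyltransferase that makes galactocerebroside, averaged 208 ± 55.8 CPM in high and 309 ± 34.4 CPM in low libraries, with high 43 (277 CPM) and high 58 (269 CPM) above low 37 (258 CPM). Gal3st1, which sulfates that lipid, differed by -0.26 ± 0.17 log2 (unadjusted p = 0.131).

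The 3 transcription factors of the list had estimates of -0.31 to -0.54. Sox10 averaged 98.9 ± 20.1 CPM in high and 135 ± 9.56 CPM in low libraries, and its highest high library (118 CPM) lay just below its lowest low library (120 CPM). Myrf, which drives myelin genes in mature oligodendrocytes, averaged 158 ± 49.5 CPM in high and 229 ± 11.4 CPM in low libraries, with 219 CPM in high 58 against a lowest low value of 213 CPM. Nkx6-2 differed by -0.31 ± 0.21 log2. Gjb1, a gap junction protein, differed by -0.35 ± 0.22 log2. Ninj2, an adhesion molecule, had the smallest difference of the list, -0.19 ± 0.26 log2, with its highest value of all in high 28 (38.0 CPM).

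Transcripts of oligodendrocyte precursors pointed the same way with larger errors. Of 15 tested, 14 had a lower estimate in high, with a median of -0.32, 2 had an unadjusted p under 0.05 and 2 had no overlap. These were Olig2 and Sox10, which is on both lists. Olig2, the factor of the whole lineage, had 40.3, 59.9 and 71.7 CPM in the lowest, median and highest high library, and 82.2, 80.7, 84.7, 77.4 and 71.8 CPM in the low libraries (-0.48 ± 0.16 log2; edgeR unadjusted p = 0.00589, adjusted p = 0.932). Its groups touched, with the margin between them smaller than the spread of either. Pdgfra, the growth factor receptor of precursors, averaged 110 ± 42.8 CPM in high and 143 ± 9.97 CPM in low libraries, with 23.8 CPM in high 28. Cspg5 was the 1 transcript with a higher estimate in high, at 0.09 ± 0.15 log2. The list mean of high 28 (5.03 log2 CPM) stood below the other 6 high libraries (5.63 to 6.07), and the high and low groups overlapped. With 1 library left out at a time, the precursor median ran from -0.38 to -0.22.

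**Figure D2:**
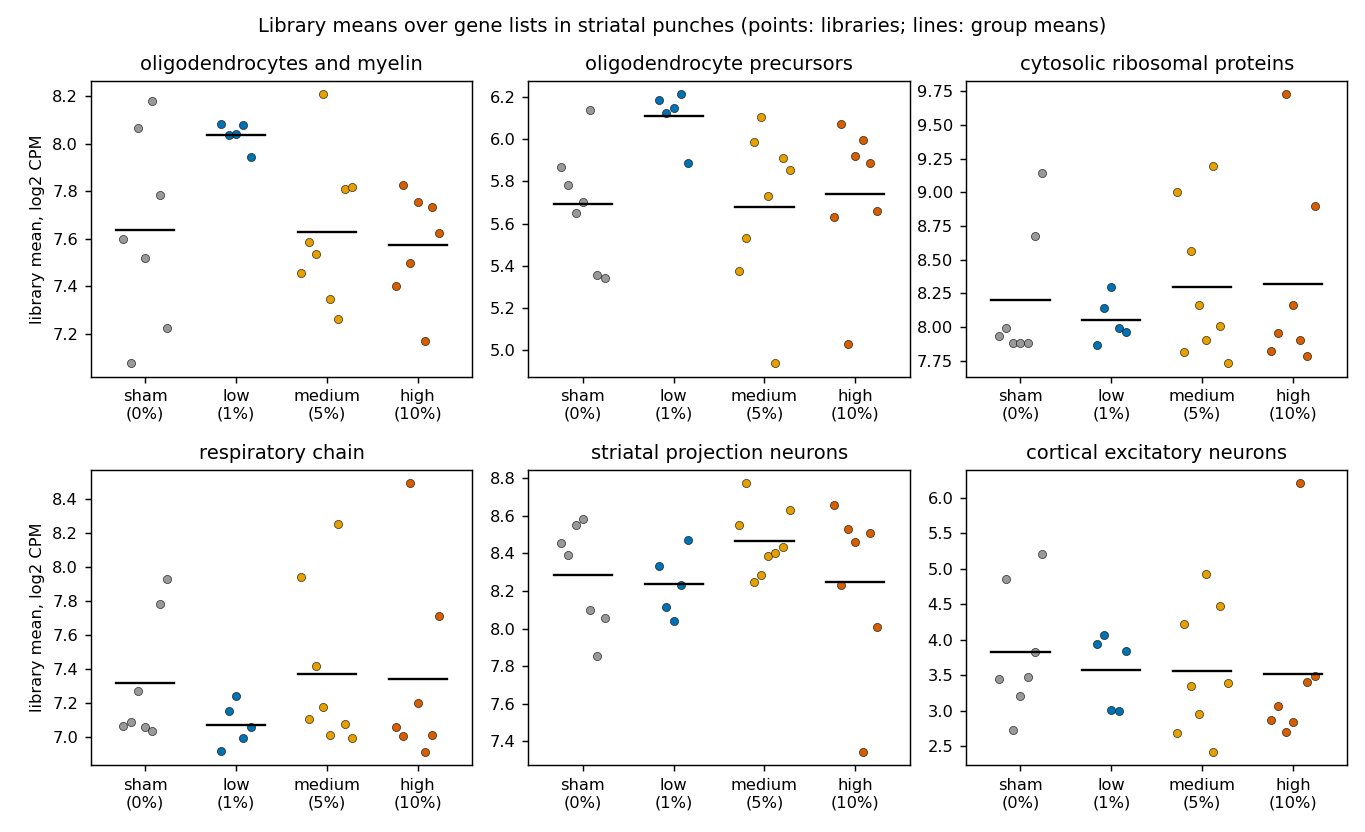
Library means over 6 gene lists (y axis, log2 CPM) by implant loading (x axis), with 1 point per library and a line at each group mean. The oligodendrocyte and myelin means of the high libraries (7.17 to 7.83) lie below those of the low libraries (7.94 to 8.08), the ribosomal and respiratory means are set apart by high 28 and high 59, and the cortical mean by high 44.

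The myelin difference between high and low depended on which libraries were kept. High 13, left out for its low Ppp1r1b, had a myelin mean of 8.43 log2 CPM when all 30 striatal libraries were scaled together, above the kept high libraries (7.17 to 7.84) and above the kept low ones (7.96 to 8.10). Low 20, left out for the same reason, had 7.76, within the high range. With both put back the list median was -0.23, all 25 estimates stayed lower in high, 1 had an unadjusted p under 0.05 and 0 were without overlap. Without high 28, high 44 and high 59, a choice made after the values were seen, the median was -0.34, all 25 estimates were lower, 5 had an unadjusted p under 0.05 and 13 had no overlap. No overlap is easier to reach with fewer high libraries, so the 13 cannot be set against the 8 of the full comparison. Leaving out high 44 alone left 7 of 25 with an unadjusted p under 0.05.

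The labels give no cohort for each rat, so runs of 15 consecutive animal numbers stood in for the 4 cohorts. Within the 4 runs, which held 1 or 2 libraries of each group, the myelin mean of high minus that of low was -0.68, -0.37, -0.58 and -0.33 log2. Their shared sign follows from the groups not overlapping and adds nothing to it. The corresponding ribosomal protein differences were -0.05, 0.70, -0.26 and 0.36.

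Outside these lists, 50 of the 59 genes with every high library below every low one were neither on the oligodendrocyte nor on the precursor list. Absence from these short lists does not make a gene separate from oligodendrocytes, and in which cells the 50 are expressed was not tested. The 10 lower genes named by smallest p were Prr5l, Mettl4, Slc45a3, Apom, Rps6ka1, C1h10orf90, Qng1, Ppfibp2, Cdc42ep1 and Me2, with estimates between -0.31 and -1.05 log2. Each had an adjusted p of 0.932 in edgeR. Prr5l, a partner of the growth-control kinase complex mTORC2, had 7.32, 10.4 and 13.002 CPM in the lowest, median and highest high library, and 18.8, 17.3, 13.99, 18.7 and 16.01 CPM in the low libraries (-0.74 ± 0.18 log2, unadjusted p = 0.000334). The groups were apart by less than the spread within either.

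Slc45a3, a sugar transporter family member, had 3.01, 5.15 and 6.71 CPM in the lowest, median and highest high library, and 7.88, 13.2, 8.85, 11.015 and 9.19 CPM in the low libraries (-0.90 ± 0.23 log2). Rps6ka1, the ribosomal S6 kinase RSK1, averaged 29.4 ± 3.2 CPM in high and 41.5 ± 4.7 CPM in low libraries (-0.50 ± 0.13 log2). Both were without overlap. Qng1, an enzyme that salvages the tRNA base queuosine, averaged 23.2 ± 1.6 CPM in high and 28.7 ± 1.9 CPM in low libraries, also without overlap, and had the smallest standard error of the 10 (-0.31 ± 0.09 log2). Ppfibp2, a liprin, and Cdc42ep1, an effector of the small GTPase CDC42, averaged 21.4 ± 4.1 and 43.3 ± 5.6 CPM in high libraries. In low libraries Ppfibp2 averaged 33.2 ± 4.1 CPM and Cdc42ep1 62.7 ± 8.3 CPM, and neither overlapped.

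The other 4 lower genes overlapped. Mettl4, an adenine methyltransferase, averaged 1.66 ± 0.44 CPM in high and 3.44 ± 1.01 CPM in low libraries, and Apom, an apolipoprotein that carries sphingosine-1-phosphate, averaged 1.39 ± 0.38 CPM in high and 2.55 ± 0.78 CPM in low libraries, both at few reads. C1h10orf90 averaged 5.67 ± 1.45 CPM in high and 9.34 ± 1.35 CPM in low libraries. Me2, a malic enzyme of mitochondria, averaged 40.3 ± 4.02 CPM in high and 52.96 ± 7.24 CPM in low libraries. For all 10 genes the sham and medium means lay between the high and the low mean. Over the 59 genes the sham mean and the medium mean lay below the low mean in all 59, and lay above the high mean in 49 (sham) and 47 (medium). The 10 and the 59 were picked by their high and low values, which favours such positions, so no order of loadings follows.

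The 10 higher genes by smallest p had estimates between 0.28 and 2.06 log2 and were Ffar2, Ikzf3, Lrfn5, Triqk, Klk7, Ppcs, Ndufaf6, LOC102548847, Zw10 and Rtn1. Only Rtn1, a reticulon of the neuronal endoplasmic reticulum, had no overlap. It had 654, 681 and 832 CPM in the lowest, median and highest high library, and 541, 629, 561, 563 and 609 CPM in the low libraries (0.28 ± 0.10 log2; edgeR unadjusted p = 0.0114, adjusted p = 0.932). Lrfn5, a synaptic adhesion molecule, averaged 32.5 ± 4.6 CPM in high and 26.1 ± 1.9 CPM in low libraries, with high 59 (24.6 CPM) among the low values. Zw10, a kinetochore and membrane transport protein, averaged 18.3 ± 2.2 CPM in high and 15.0 ± 1.6 CPM in low libraries.

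The largest estimates among the higher genes were at very few reads. Ffar2, a receptor for short-chain fatty acids, had 0.144, 1.27 and 2.57 CPM in the lowest, median and highest high library, and 0.139 to 0.598 CPM in the low libraries (2.06 ± 0.63 log2). Ikzf3, a lymphocyte transcription factor, averaged 1.20 ± 0.46 CPM in high and 0.483 ± 0.156 CPM in low libraries. With 1 library left out at a time, Ffar2 passed the expression filter in 9 of 12 fits and Ikzf3 in 10. Whether either was tested thus depended on single libraries. Klk7, a serine protease, averaged 3.65 ± 3.61 CPM in high and 1.07 ± 0.69 CPM in low libraries, with 9.05 CPM in high 28 and 8.50 CPM in high 14.

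For Ndufaf6, an assembly factor of respiratory complex I, high 28 had 34.2 CPM and the other high libraries 12.3 to 21.0 CPM, against 9.51 to 13.2 CPM in the low libraries. High 28 was also the highest library for Ppcs, an enzyme of coenzyme A synthesis (20.3 CPM), for Triqk (16.9 CPM) and for LOC102548847 (26.6 CPM), for which no role is given here. Over the 16 genes with every high library above every low one, the sham mean and the medium mean lay above the low mean in all 16, and lay above the high mean in 8 (sham) and 6 (medium). These 16 were also picked by their high and low values, which favours sham and medium means above the low mean.

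**Figure D3:**
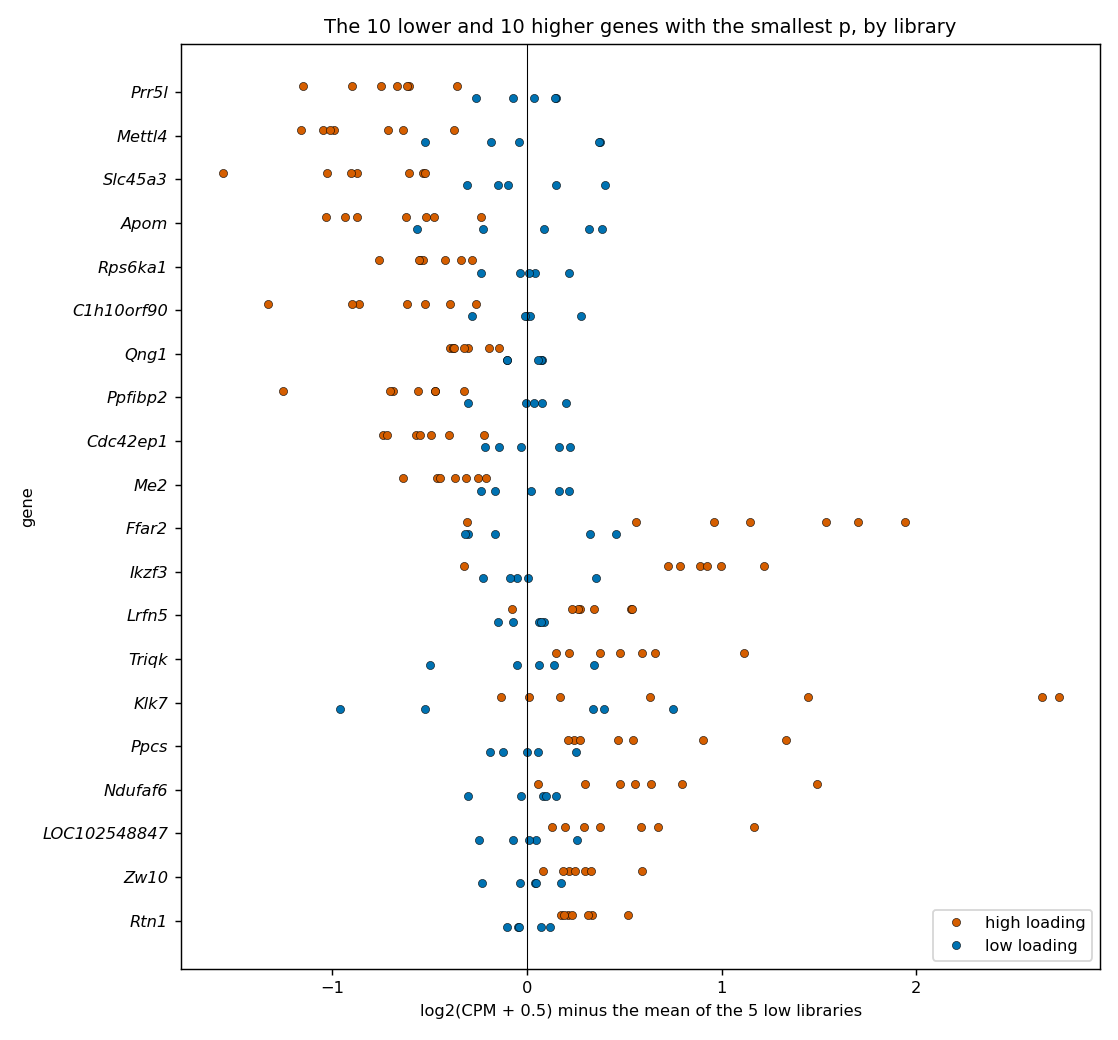
Values by library for the 10 lower and 10 higher genes of smallest p (rows), as log2(CPM + 0.5) minus the mean of the 5 low libraries (x axis), with high points above low points in each row. Prr5l, Slc45a3, Rps6ka1, Qng1, Ppfibp2, Cdc42ep1 and Rtn1 show no overlap between groups, and none of the 20 passed the adjusted threshold.

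Transcripts of protein synthesis and respiration had higher estimates in high, where high 28 and high 59 had the highest library means for ribosomal proteins and the respiratory chain. All 77 cytosolic ribosomal protein transcripts tested (80 on the list) were higher, with a median of 0.45 log2, and 0 had an unadjusted p under 0.05. All 72 respiratory chain transcripts were higher (median 0.43), as were 67 of 70 mitochondrial ribosomal protein transcripts (median 0.30, 4 with an unadjusted p under 0.05) and all 31 proteasome transcripts (median 0.22). By complex, the respiratory medians were 0.44 for the 33 Nduf subunits of the first complex, 0.21 for the 4 Sdh subunits, 0.37 for Uqcr and Cyc1, 0.46 for Cox and 0.42 for ATP synthase.

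Rpl30, a protein of the large ribosomal subunit, had 587 CPM in high 28 and 290 CPM in high 59, against 145 to 196 CPM in the other 5 high libraries and 113 to 171 CPM in the low libraries. Cox5b, a subunit of cytochrome c oxidase, had 818 CPM in high 28 and 446 CPM in high 59, against 198 to 273 CPM in the other high libraries and 182 to 262 CPM in the low libraries. In both genes the remaining high libraries overlapped the low ones. Ndufa5, a subunit of the first complex, was the 1 respiratory transcript without overlap, at 78.2, 82.4 and 201 CPM in the lowest, median and highest high library and 70.7 to 77.9 CPM in the low libraries. Without high 28 alone the medians were 0.08 for cytosolic ribosomal, 0.09 for respiratory, 0.06 for mitochondrial ribosomal and 0.06 for proteasome transcripts. Without high 28, high 44 and high 59, only 4 of 77 cytosolic ribosomal transcripts were higher (median -0.14), and the respiratory median was -0.01 with 33 of 72 higher. Under limma-voom, which weights each library by its quality, 9 of the 77 were higher. Sham and medium libraries also spread widely over the ribosomal list, from 7.88 to 9.15 and from 7.73 to 9.20 log2 CPM.

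**Figure D4:**
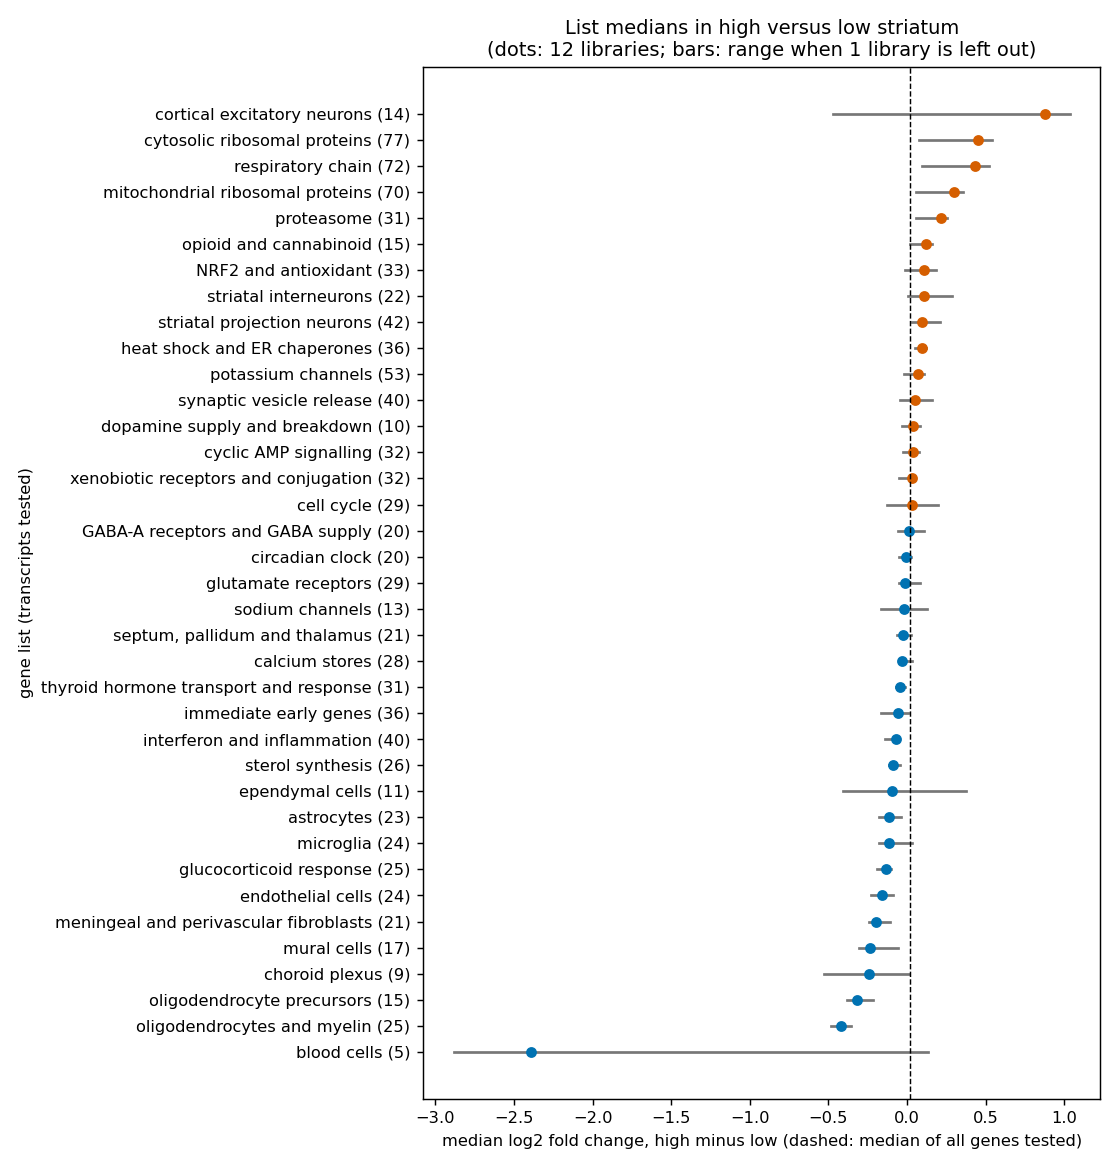
Median log2 difference (high minus low, x axis) for 37 gene lists (rows, with the number of transcripts tested), and its range when each of the 12 libraries is left out (bars). The oligodendrocyte and myelin median (-0.42) keeps its sign with any 1 library left out, while the cortical median runs from -0.47 to 1.03 and the blood median from -2.88 to 0.13.

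Other glial and vascular lists had estimates below the median of all genes by smaller amounts. Astrocyte transcripts were lower in 16 of 23 (median -0.11), microglial in 14 of 24 (-0.11), endothelial in 20 of 24 (-0.16), mural in 12 of 17 (-0.24) and fibroblast in 15 of 21 (-0.20), and the library means of the groups overlapped in every one of these lists. Gfap, the intermediate filament of astrocytes, averaged 726 ± 229 CPM in high and 1026 ± 224 CPM in low libraries (unadjusted p = 0.0493), with 1076 CPM in high 59. Col3a1, a fibrillar collagen of fibroblasts, averaged 16.1 ± 4.2 CPM in high and 22.4 ± 4.7 CPM in low libraries. Myh11, the smooth muscle myosin, had 6.89 CPM in high 28 and 30.5 to 39.99 CPM in the other high libraries, against 32.7 to 72.8 CPM in low libraries. Of tissue next to the punches, ependymal transcripts were lower in 10 of 11 (-0.10, with library means higher in high), choroid plexus in 5 of 9 (-0.24) and those of septum, pallidum and thalamus in 12 of 21 (-0.02), while cell cycle transcripts were higher in 19 of 29 (0.03). Low 37 moved several of these medians: without it they were -0.04 for astrocytes, 0.03 for microglia, -0.09 for endothelial and -0.06 for mural transcripts. Without high 28 the mural median was -0.13, and without high 14 the fibroblast median was -0.11 and the microglial -0.07. Without high 59 the astrocyte median was -0.18, and without low 7 and high 58 in turn the microglial median was -0.18 and -0.07. Without low 51 the ependymal median became 0.37 and the choroid plexus median 0.01, and the cell cycle median changed sign with several single libraries left out.

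The cortical and blood lists each followed 1 library. The 14 cortical excitatory neuron transcripts had a median of 0.88 log2 that became -0.47 without high 44, and the library means of the groups had the opposite sign to this median (3.51 ± 1.22 log2 CPM in high and 3.57 ± 0.52 in low). Tbr1, a cortical transcription factor, had 90.8 CPM in high 44 and 0.526 to 3.77 CPM in the other high libraries. The 5 blood transcripts tested (15 on the list) had a median of -2.39 that became 0.13 without low 22. Hbb, a beta globin, had 137 CPM in low 22 and 1.95 to 10.4 CPM in the other low libraries, against 0.394 to 19.7 CPM in the high libraries, and it shares reads with near-identical globin genes such as Hbb-b1, so the 2 are uncertain as separate genes.

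Striatal neurons are described with the caution that their transcripts bear on the choice of libraries. Of 42 projection neuron transcripts, 28 had a higher estimate in high (median 0.09), and library means were 8.25 ± 0.45 log2 CPM in high and 8.24 ± 0.17 in low. The left-out libraries had 5.57 (high 13) and 5.41 (low 20) with all striatal libraries scaled together, so the level of the kept ones follows in part from the choice by Ppp1r1b. Ppp1r1b itself averaged 3736 ± 1742 CPM in high and 3265 ± 365 CPM in low libraries after scaling. Medians of the interneuron (0.11), dopamine (0.04), cyclic AMP (0.04), GABA (0.01), glutamate receptor (-0.01), synaptic vesicle (0.05), sodium channel (-0.02), potassium channel (0.07) and opioid and cannabinoid (0.12) lists lay close to the median of all genes (0.02). For the dopamine, cyclic AMP, GABA, synaptic vesicle and potassium channel lists the library means were lower in high, opposite in sign to these medians. Of these lists, 2 transcripts had an unadjusted p under 0.05 in edgeR. They were 1 of 20 tested in the GABA list, higher in high, and 1 of 53 in the potassium channel list, lower in high. Over all genes tested, 1.03% were higher and 1.79% lower at that limit. Gabra5, a GABA-A receptor subunit, averaged 32.7 ± 15.4 CPM in high and 21.5 ± 5.9 CPM in low libraries, with 66.8 CPM in high 44. Kcna6, a voltage-gated potassium channel, averaged 141 ± 14.8 CPM in high and 171 ± 4.53 CPM in low libraries, without overlap.

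Lists that bear on exposure to a hydroxylated biphenyl held no called transcript. Of 32 xenobiotic receptor and conjugation transcripts, 17 were higher and 15 lower in high (median 0.03, with library means lower in high). Of these 32, 5 were lower at an unadjusted p under 0.05 in edgeR, where 1.79% of all genes tested were. They were Cyp3a9, Ugt8, Cyp2j4, Cyp2u1 and Papss1. Ugt8 is also on the myelin list. Cyp3a9, a drug-metabolizing cytochrome, averaged 5.25 ± 1.53 CPM in high and 7.71 ± 1.33 CPM in low libraries, and Cyp2u1, a fatty acid hydroxylase, averaged 14.7 ± 2.7 CPM in high and 18.4 ± 2.4 CPM in low libraries. Papss1, which makes the sulfate donor for sulfotransferases, averaged 97.7 ± 5.7 CPM in high and 110 ± 8.17 CPM in low libraries. All of these overlapped between groups.

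The thyroid hormone list had 14 transcripts higher and 17 lower (median -0.04), and its 1 transcript with an unadjusted p under 0.05 was Mbp, which belongs to the myelin list too. Antioxidant transcripts were higher in 22 of 33 (median 0.11), with Srxn1, the enzyme that repairs oxidized peroxiredoxins, at 53.9 ± 14.7 CPM in high and 42.3 ± 3.2 CPM in low libraries, where high 28 had 86.2 CPM. The antioxidant median turned to -0.01 without high 28, and it was -0.08 without high 28, high 44 and high 59. Sterol synthesis transcripts were lower in 17 of 26 (median -0.09). Of these, Hmgcs1, an early enzyme of the pathway, averaged 328 ± 56.95 CPM in high and 392 ± 34.1 CPM in low libraries, and Dhcr7, an enzyme near the end of the pathway, averaged 33.1 ± 1.9 CPM in high and 38.0 ± 4.9 CPM in low libraries. Glucocorticoid response transcripts were lower in 17 of 25 (median -0.13), circadian in 10 of 20, calcium store in 16 of 28 (-0.03), heat shock and chaperone in 6 of 36 (0.09), immediate early in 21 of 36 (-0.06, and 0.01 without high 27) and interferon and inflammation in 26 of 40 (-0.07).

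Cerebellar punches from the same study, 8 high and 8 low, which included all 12 rats of the striatal comparison, served to ask whether the difference was larger or smaller in the striatum. In a fit of both regions, 0 of 12634 genes (0%) had an adjusted p under 0.05 for the region difference in edgeR (smallest adjusted p = 0.787), and 723 had an unadjusted p under 0.05. Myelin transcripts also had lower estimates in high cerebellum, 22 of 25, with a median of -0.50 against -0.03 over all cerebellar genes. Library means there were 6.30 ± 0.46 log2 CPM in high and 6.49 ± 0.97 in low (SD, n = 8 each) and overlapped widely, with 8.72 in the highest low library. That single library raises the low mean. Its part in the lower cerebellar estimates, of these 25 and of the 59 genes below, was not tested. Cerebellar libraries also stood apart on ribosomal proteins, with means of 7.29 to 12.08 log2 CPM in high and 7.33 to 8.86 in low and a list median of 2.24. The part of these libraries in the cerebellar myelin median was not tested. For none of the 25 was the region difference at an unadjusted p under 0.05, the smallest being 0.421. This does not show that the regions are alike. Of the 59 striatal genes without overlap, 57 had a lower estimate in high cerebellum too, against 53% of all cerebellar genes, and 5 of them were lower at an unadjusted p under 0.05, against 2.54%. The estimates of the 2 regions are not independent, since the striatal rats gave a library to both.

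Among the genes with the smallest region difference p, single cerebellar libraries stood out for some. Slc18a3, the vesicular transporter of acetylcholine, averaged 16.1 ± 11.1 CPM in high and 12.6 ± 7.4 CPM in low striatum, and 0.0621 ± 0.176 CPM in high and 4.11 ± 11.5 CPM in low cerebellum, where animal 22 had 32.6 CPM and the next low library 0.278 CPM. Plppr1, a phosphatase-related membrane protein of neurons, rested on no single library, with 42.0 ± 10.6 CPM in high and 40.7 ± 8.8 CPM in low striatum, and 3.50 ± 1.01 CPM in high and 6.19 ± 0.90 CPM in low cerebellum. On the other side stood Atp4a, Spag5, Sult2b1, Actg2 and Socs1. Socs1, an inhibitor of cytokine signalling, averaged 1.18 ± 0.75 CPM in high and 1.78 ± 0.68 CPM in low striatum, and 8.77 ± 7.38 CPM in high and 2.50 ± 1.00 CPM in low cerebellum. Its highest high cerebellar libraries had 18.3 and 17.9 CPM, against a median of 4.64 CPM. Spag5 (highest 77.7 CPM, median 18.1 CPM) and Sult2b1 (highest 59.9 CPM, median 9.13 CPM) also had high cerebellar libraries far above the median.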

How the data were processed

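The deposited values are whole-number read counts per gene and library, 1 table per brain region. FastQC, HISAT2 and rn6 are named by the submitters' processing notes, without a version. Which tool counted the reads, with which strand setting and annotation, is not given in the sources used here, so genes that overlap or share sequence may share counts. Per the labels' protocols, either poly(A) selection or depletion of rRNA preceded the libraries, and the choice for each library is not stated.

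From these counts the high minus low difference was computed in R 4.3.3 with edgeR 4.0.16, on the 27 striatal libraries of all 4 loadings with Ppp1r1b of at least 500 CPM, using TMM scaling, filterByExpr and robust quasi-likelihood tests. P values were two-sided and adjusted by the Benjamini-Hochberg method over all genes tested, with a threshold of 0.05. The striatal table held 14231 genes, 14163 of them with a symbol, and 12243 passed the filter. The region difference was an interaction term in a fit with 31 cerebellar libraries. That fit treated both libraries of a rat as independent, and an alternative took the animal as a block. Log2 CPM used a prior count of 2, and levels are mean ± SD. DESeq2 1.42.0, limma 3.58.1 (voom with quality weights), other filters, other libraries and covariates were alternatives. Promoters of GRCr8 were matched by gene ID.

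The rule for named genes took the 10 lower and 10 higher genes of smallest p, the 5 per direction for the region difference, and list members by p. Libraries, lists and tests were chosen with earlier results of these data known. The roles that group the myelin transcripts and the choice of promoters were added after their values were seen. Each library is 1 numbered rat. A few genes are not reported here. The procedure was tested on simulated data.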

Additional observations from a re-analysis of the deposited data

Results flagged for a closer look

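Of 190 groups of libraries examined (the named transcripts and list means, in the high and in the low group), 27 held a library far from the others of its group. For independent groups chance gives about 1 in 20, or 9.5. The groups share the same libraries, so the 27 are not separate observations. Most of the 27 were high 28. Its lower values were Ppfibp2 at 13.5 CPM (20.1 to 26.3 in the other high libraries), Fgfr3 at 99.6 CPM (149 to 191), Csf1r at 77.7 CPM (163 to 210) and Sall1 at 22.3 CPM (44.2 to 71.6). Vascular and fibroblast transcripts were lower in it as well, with Abcb1a at 19.2 CPM (65.5 to 98.5), Kdr at 5.13 CPM (19.7 to 42.2), Myh11 at 6.89 CPM (30.5 to 39.99), Abcc9 at 9.32 CPM (37.3 to 49.9) and Col1a1 at 4.05 CPM (9.67 to 18.1). Its mean over oligodendrocyte precursor transcripts was 5.03 log2 CPM (5.63 to 6.07).

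The higher values of high 28 were Itpka at 301 CPM (128 to 175), Bpgm at 183 CPM (90.8 to 120), Psmb7 at 401 CPM (163 to 215), Psmd7 at 178 CPM (90.3 to 116), Psmb3 at 158 CPM (61.2 to 91.0), Mrpl19 at 31.8 CPM (17.4 to 21.6), Ndufa5 at 201 CPM (78.2 to 109) and Uqcrb at 128 CPM (42.2 to 66.5). Its proteasome mean was 7.35 log2 CPM (6.46 to 6.79). High 44 held Ccn3 at 128 CPM (1.71 to 6.01), Neurod2 at 37.5 CPM (0 to 1.68), Tbr1 at 90.8 CPM (0.526 to 3.77) and a cortical mean of 6.20 log2 CPM (2.71 to 3.49). High 59 had Ikzf3 at 0.280 CPM (1.11 to 1.76). In the low group, low 7 had Rpl38 at 65.7 CPM (98.8 to 107) and Mrpl30 at 33.7 CPM (48.3 to 51.7), and low 53 had a precursor mean of 5.88 log2 CPM (6.13 to 6.21).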

How the results depend on the processing

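No alternative called a gene for high versus low, with smallest adjusted p values from 0.444 to 1. The 20 named genes kept their direction in 447 of 447 alternative values, and 657 of 667 list medians moved by less than 1 SD between libraries. Ffar2 had a value in only 15 of 23 alternatives and Ikzf3 in 18, since the expression filter left them out of the others. The named genes were picked by smallest p in these same libraries, so a kept direction was nearly given. A median could also change sign within 1 SD, as the antioxidant one did (0.11 to -0.08). All 25 myelin estimates stayed lower in high in 23 of 23 alternatives. These largely reuse the same libraries, whose myelin means do not overlap between high and low, so a kept sign was nearly given here too. The list median ran from -0.48 to -0.23 over its own alternatives. With the libraries of low Ppp1r1b put back, that median was -0.23, with 1 transcript at an unadjusted p under 0.05 and 0 without overlap. Leaving out 1 library at a time gave 7 to 17 myelin transcripts at an unadjusted p under 0.05, a cortical median of -0.47 to 1.03 and a blood median of -2.88 to 0.13. Without high 28, high 44 and high 59 (chosen after seeing the data), the medians were -0.35 (cortical), -0.14 (cytosolic ribosomal) and -0.011 (respiratory), with 4, 33, 25 and 18 transcripts higher for cytosolic ribosomal, respiratory, mitochondrial ribosomal and proteasome lists, and with 5 myelin transcripts at an unadjusted p under 0.05 and 13 without overlap. The count without overlap rises more easily when fewer high libraries are compared. Under limma-voom with quality weights 9 cytosolic and 38 mitochondrial ribosomal transcripts were higher. The cause of these shifts beyond the libraries left out was not tested.

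With the animal as a replicate block (26 rats with both regions, 12 of them high or low), 0 genes were called for the region difference. DESeq2 called 1, Shox2 (adjusted p = 9.408e-12), which had 0 CPM in every high cerebellar library and up to 18.6 CPM in low ones, and whose edgeR adjusted p was 0.787. Ffar2, Ikzf3, Apom and Mettl4 averaged between 0.319 and 3.44 CPM in the high and low groups, so few reads stand behind each of their values. The text of the series states 6 animals per group, while the tables hold up to 8 libraries.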
